A study of Mus musculus with 15 samples.

Results

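The epidermal keratin genes described here are the basal keratins *Krt5*, *Krt14* and *Krt15* and the suprabasal keratins *Krt1*, *Krt10*, *Krt2* and *Krt77*. They were chosen by symbol, as keratins of the basal and suprabasal layers, and make up 7 of the 55487 genes in the count table. Their mRNA was counted by QuantSeq 3′ mRNA sequencing in whole skin of 3-week-old C57BL/6 mice. There were 5 WT libraries, from littermates carrying loxP-flanked *Otulin* alleles (*Otulin* fl/fl) without Cre. The OTULIN-KO mice were *Otulin* fl/fl K14-Cre and gave 5 libraries of skin that looked unaffected (non-lesional) and 5 libraries of visibly affected skin (lesional). OTULIN is a deubiquitinase that removes linear ubiquitin chains, and all mice, controls included, carried the floxed alleles. Cre was driven by the promoter of the keratin 14 gene, itself one of the genes described, so deletion was directed to keratinocytes, and all other skin cells kept the gene. The sources used here do not give the body site or sex of each sample, or whether lesional and non-lesional skin came from the same mice.

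The libraries held 1962604 to 2567138 counts each, and the 7 keratins together took 0.9% to 1.51% of a library. The study describes the libraries of a group as separate mice, and the labels name no animal. *Otulin* itself had 12.2 to 28.3 CPM (counts scaled to library size) in WT, 21.3 to 30.7 CPM in non-lesional and 19 to 27.2 CPM in lesional libraries, so it did not separate the genotypes. Counts at the 3′ end may lie outside the deleted exons. Whole skin also holds cells outside the epidermis, where the study notes that OTULIN is still expressed. The part of either was not tested, and the groups are named by their labels. Lesional replicates 2 and 11 stood apart from the other libraries in stress keratins and neutrophil markers. Over all genes that passed the filter on low counts, lesional replicate 14 was about as far from WT as replicate 2. Their median correlations with the WT libraries were 0.918 and 0.921, against 0.859 for replicate 11. The stress keratins *Krt6a*, *Krt6b*, *Krt16* and *Krt17*, which keratinocytes make in wounds and inflammation, summed to 12848 CPM in lesional replicate 2 and 31612 CPM in lesional replicate 11. They summed to 727.9 to 968 CPM in the other lesional libraries and to at most 2184 CPM in any WT or non-lesional library. The 5 neutrophil markers summed to 2984 and 5091 CPM in these same lesional replicates, to 218 CPM in non-lesional replicate 3, and to at most 21 CPM elsewhere. *S100a8* and *S100a9*, which inflamed keratinocytes also make, reached 2388.8 and 2685.8 CPM in lesional libraries, whereas *Cxcr2* and *Retnlg* reached at most 5.47 and 11.4 CPM and *Csf3r* had 0 counts in all libraries. The 11 skeletal muscle markers summed to 3754 CPM in lesional replicate 11 and to 35902 CPM in lesional replicate 14, against 15582 to 30259 CPM in the other libraries. The lesional fold changes and ratio differences of the keratins are therefore also given without lesional replicates 2 and 11, a choice made after the values were seen. Because whole skin was sequenced, fewer cells of a type and less RNA per cell cannot be told apart.

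Keratins are the proteins of the intermediate filaments of epithelial cells, and each filament is built from pairs of an acidic type I and a basic type II keratin. In the basal layer of the epidermis, which holds the dividing keratinocytes, keratin 5 (type II) pairs with keratin 14 (type I), and keratin 15 (type I) is a further basal keratin that also marks stem cells of the hair follicle bulge. When a keratinocyte leaves the basal layer it switches to keratin 1 (type II) and keratin 10 (type I). Keratin 77 is a type II keratin closely related to keratin 1 and is found in suprabasal cells, while keratin 2 (type II) is made in the uppermost living layers, in the mouse mainly in ear, sole and tail skin.

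In GRCm38, all 7 genes lie on the minus strand. The type I genes are on chromosome 11, *Krt10* (ENSMUSG00000019761) at chr11:99385254-99389364, *Krt15* (ENSMUSG00000054146) at chr11:100131758-100135928 and *Krt14* (ENSMUSG00000045545) at chr11:100203162-100207548. The type II genes are neighbours on chromosome 15, *Krt5* (ENSMUSG00000061527) at chr15:101707070-101712898, *Krt2* (ENSMUSG00000064201) at chr15:101810689-101818169, *Krt1* (ENSMUSG00000046834) at chr15:101845426-101850794 and *Krt77* (ENSMUSG00000067594) at chr15:101858731-101869705. Of the 7 genes, 5 had an entry in the RefSeq promoter table used here (GRCm38.p6), and *Krt1* and *Krt15* had none. The entry for *Krt14* begins 1518 bases inside the gene as placed above and is not printed. The other 4 are shown because *Krt10* and *Krt77* are the pair whose levels followed each other most closely below, while *Krt5* is basal and *Krt2* was hardly counted. Each line is the 250 bases before the start site on the minus strand, 5′ to 3′, at chr11:99389365-99389614 for *Krt10*, chr15:101869706-101869955 for *Krt77*, chr15:101818170-101818419 for *Krt2* and chr15:101712906-101713155 for *Krt5*. Capitals mark the matches to the motifs named beneath.
Krt10: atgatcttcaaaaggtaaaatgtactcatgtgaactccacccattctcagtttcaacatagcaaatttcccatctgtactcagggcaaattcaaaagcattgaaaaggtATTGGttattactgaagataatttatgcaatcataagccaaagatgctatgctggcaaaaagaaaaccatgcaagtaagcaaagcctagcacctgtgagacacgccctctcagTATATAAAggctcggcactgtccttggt
Krt77: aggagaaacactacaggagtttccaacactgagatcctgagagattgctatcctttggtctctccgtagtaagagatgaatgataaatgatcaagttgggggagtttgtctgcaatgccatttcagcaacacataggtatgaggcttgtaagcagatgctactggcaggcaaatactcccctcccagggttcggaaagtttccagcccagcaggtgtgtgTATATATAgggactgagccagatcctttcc
Krt2: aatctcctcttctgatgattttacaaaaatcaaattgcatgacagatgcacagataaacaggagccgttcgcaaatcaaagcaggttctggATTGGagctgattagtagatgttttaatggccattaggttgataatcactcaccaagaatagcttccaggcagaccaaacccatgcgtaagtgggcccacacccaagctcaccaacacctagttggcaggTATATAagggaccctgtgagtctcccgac
Krt5: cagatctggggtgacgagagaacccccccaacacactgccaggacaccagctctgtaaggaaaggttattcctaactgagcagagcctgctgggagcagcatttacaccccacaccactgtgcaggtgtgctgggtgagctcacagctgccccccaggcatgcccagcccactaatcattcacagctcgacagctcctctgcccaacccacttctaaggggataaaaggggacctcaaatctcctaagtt

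Both strands were searched for the TATA box as TATAAA and as TATATA. The AP-1 site was searched as TGANTCA. The AP-2 site was searched as GCCNNNGGC. The CCAAT box, which reads ATTGG from the other strand, was the remaining motif. *Krt10*, *Krt77* and *Krt2* each had TATATA with its first base 28 to 30 bases before the start, at 28 in *Krt10*, at 30 and again at 28 in *Krt77*, where the matches overlap, and at 29 in *Krt2*. *Krt10* also had TATAAA at 26, overlapping its TATATA. Among the 32851 promoters of the same length, 5.25% held TATATA and 12.4% held TATAAA in this window. A CCAAT box on the opposite strand stood 141 bases before the start of *Krt10* and 159 before that of *Krt2*, and 33.8% of all promoters held one. Neither TGANTCA, present in 6.75% of promoters, nor GCCNNNGGC, present in 13.7%, was in any of the 4 windows, and the *Krt5* window held none of the 5 motifs. These are matches of letters only, and no factor binding was measured.

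In WT skin *Krt10* was the most abundant of the 7 keratins on average, followed by *Krt15*, *Krt77*, *Krt5*, *Krt14* and *Krt1*, and *Krt2* was almost absent. QuantSeq reads come from the end of each transcript, so these levels are compared between genes as CPM without division by length. *Krt10* was at 3461 ± 1113 CPM (SD, n = 5), with 2662, 2148, 3700.1, 3775 and 5021 CPM in WT replicates 1, 4, 7, 10 and 13. Its lowest and highest WT libraries thus lay further apart than those of any other WT keratin in CPM. *Krt15* was at 3003 ± 386 CPM (SD, n = 5), with a range of 2473 to 3416 CPM. *Krt77* was at 2957 ± 456 CPM (SD, n = 5), with 2302 to 3361 CPM. These 3 genes were not separated by rank within WT libraries. *Krt10* exceeded *Krt15* in 3 of 5 libraries and *Krt77* in 4 of 5, and *Krt15* exceeded *Krt77* in 3 of 5. Below them *Krt5* was at 2032 ± 242 CPM (SD, n = 5), under *Krt77* and under *Krt15* in 5 of 5 WT libraries.

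*Krt14*, the type I partner of *Krt5*, was at 917 ± 319 CPM (SD, n = 5), with 1450.0, 647, 937, 842 and 709.5 CPM in WT replicates 1, 4, 7, 10 and 13. *Krt5* counts were 1.65 to 2.79 times those of *Krt14* in each WT library. *Krt14* was the 1 member with sequence shared near its 3′ end. In the last 500 bases of its transcript, 15.7% of 35-base words (73 of 466) also occur in *Krt16*, *Krt17* or *Krt42*, and the other members had 0 such words. *Krt1* was at 196 ± 43.1 CPM (SD, n = 5), lower than every other keratin except *Krt2* in 5 of 5 WT libraries. Its counts were 0.0288 to 0.1 times those of *Krt10*, its usual partner. *Krt10* shares 146 exon bases with *Gm11940* on the opposite strand, which had 54 to 360 counts. *Krt5* likewise shares 129 exon bases with *Gm44323*, which had 0 counts in all libraries. The counting options the study lists name no strand setting, and the counter ignores strand by default, so reads of either gene of such a pair cannot be told apart where they overlap.

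*Krt2* had 8 counts in all 15 libraries together. That is 0.231 CPM of 34609889 counts (exact 95% binomial interval 0.0998 to 0.455 CPM, counting error only). There were 4 counts in WT, 3 in non-lesional and 1 in lesional libraries, and 8 of the 15 libraries had none, where 0 counts allow up to 1.54 CPM in the shallowest library. No difference in *Krt2* was detectable at this depth, and it was the 1 member that did not pass the filter on low counts in any comparison.

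**Figure D1:**
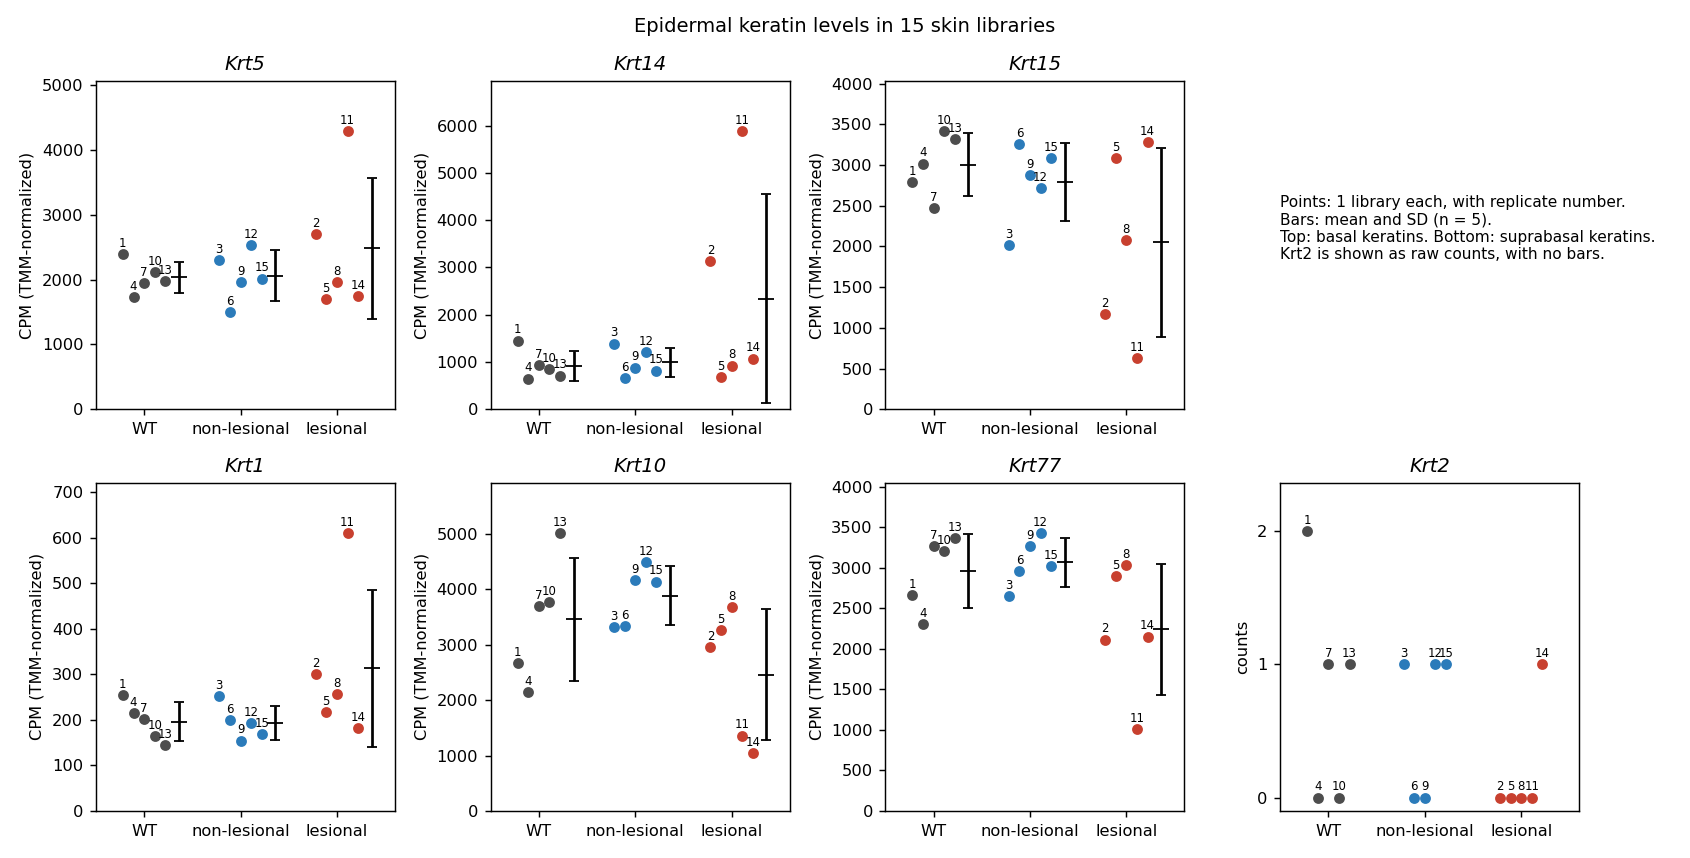
Level of each keratin in every library (vertical axes, CPM with TMM-normalized library sizes, or counts for *Krt2*) by group, with replicate numbers beside the points and the mean and SD (n = 5) as bars. WT and non-lesional libraries overlap for every keratin, and lesional replicate 11 is the highest library for *Krt5*, *Krt14* and *Krt1* and the lowest for *Krt15* and *Krt77*.

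In unaffected OTULIN-KO skin the keratin levels were close to those of WT, and none of the 6 keratins tested passed an adjusted p of 0.05 in edgeR's quasi-likelihood test. *Krt10* had 3316, 3329.6, 4160.4, 4490.1 and 4139 CPM in non-lesional replicates 3, 6, 9, 12 and 15, all within the WT range. Their mean of 3887 ± 534 CPM (SD, n = 5) gave a log2 fold change of 0.17 (standard error 0.19, 95% interval -0.23 to 0.56), which ran from 0.0376 without WT replicate 4 to 0.34 without WT replicate 13. *Krt14* had 1388, 655.5, 879, 1216 and 818 CPM in the same order and a log2 fold change of 0.11 (standard error 0.25, 95% interval -0.44 to 0.66). Replicate 3 was the highest non-lesional library for *Krt14*, followed by replicate 12, and WT replicate 1 lay well above the other WT libraries. *Krt5* ranged from 1503 to 2534 CPM, with a log2 fold change of 0.02 (95% interval -0.27 to 0.31). *Krt77* ranged from 2649.5 to 3429 CPM (0.05, 95% interval -0.23 to 0.33) and *Krt1* from 154 to 252 CPM (-0.016, 95% interval -0.34 to 0.31). *Krt15* had the only other negative value, -0.11 (95% interval -0.41 to 0.19), with 2016 CPM in replicate 3 below all WT libraries and the other 4 within the WT range. The widest interval, that of *Krt14*, shows that a log2 difference of up to 0.66 could not be told from none.

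The groups overlapped for all 6 keratins tested, where 0.653% of the 13021 genes tested had no overlap between the groups, and 0 of 6 had an unadjusted p under 0.05, where 3.16% of all genes did and 1.85% were also higher. Over all genes 0 passed an adjusted p of 0.05 (edgeR), 411 had an unadjusted p under 0.05, and DESeq2's Wald test called 1 gene, which was no keratin. The titles number the libraries in turn as WT, lesional and non-lesional, and with each 3 consecutive numbers taken as a set and fitted as a block, 8 genes passed the adjusted threshold, none of them a keratin. The labels do not say that such a set belongs together, and the blocked fits were added after the data were seen. In this blocked fit 0 of the 6 keratins had an unadjusted p under 0.05, where 5.92% of all genes did. The basal keratins had a median log2 fold change of 0.02 over 3 genes and the suprabasal keratins of 0.05 over 3 genes, against -0.0027 over all genes tested.

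In affected skin the basal keratins differed from each other in direction. *Krt14* was higher on average, *Krt15* lower and *Krt5* little different, while among the suprabasal keratins *Krt1* was higher and *Krt10* and *Krt77* lower. None of these differences passed the adjusted threshold, and without lesional replicates 2 and 11 the log2 fold changes of *Krt14*, *Krt5* and *Krt15* lay between -0.18 and -0.051. *Krt14* had 3126, 679.6, 925, 5886 and 1070.3 CPM in lesional replicates 2, 5, 8, 11 and 14. Replicates 2 and 11 lay above every WT and every non-lesional library, and the other 3 lay within the WT range. The lesional mean was 2337 ± 2212 CPM (SD, n = 5), which as a log2 fold change over WT is 1.36 (standard error 0.57, 95% interval 0.109 to 2.61, edgeR unadjusted p = 0.0357, adjusted p = 0.926). Without replicates 2 and 11 it was -0.051 (unadjusted p = 0.84, edgeR), and without replicate 11 alone it was 0.66. With the sets as a block it was 0.873 (edgeR adjusted p = 0.892).

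*Krt5*, the partner of *Krt14*, was highest in the same pair of lesional libraries, over a smaller range. It had 2702, 1701, 1966, 4290.5 and 1744 CPM in lesional replicates 2, 5, 8, 11 and 14, with replicates 2 and 11 again above all WT libraries and replicate 5 below them. In log2 terms the difference from WT was 0.29 (standard error 0.25, edgeR adjusted p = 0.934), and -0.18 without replicates 2 and 11. *Krt15* went the other way, with 1163.5, 3086, 2077, 632 and 3281 CPM in the same order. Replicates 2, 8 and 11 lay below all WT libraries, and replicates 5 and 14 lay within the WT range. Its log2 fold change was -0.56 (standard error 0.36, edgeR adjusted p = 0.926), and -0.10 without replicates 2 and 11.

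*Krt1* had 300.0, 216, 257, 610.4 and 181 CPM in lesional replicates 2, 5, 8, 11 and 14, so that replicates 2, 8 and 11 exceeded all WT and all non-lesional libraries. Against WT this gave a log2 fold change of 0.68 (standard error 0.31, 95% interval 0.0169 to 1.35, edgeR unadjusted p = 0.0453, adjusted p = 0.926). Without replicates 2 and 11 it was 0.15, and without replicate 11 alone 0.29. *Krt10* had 2951, 3259, 3684, 1358.5 and 1049 CPM in the same order. Here the low libraries were replicates 11 and 14, which lay below all WT and non-lesional libraries, while replicate 2 was within the WT range. Its log2 fold change was -0.49 (standard error 0.34, edgeR adjusted p = 0.926), -0.38 without replicates 2 and 11, and -0.298 without replicate 14 alone. *Krt77* had 2111, 2893, 3028, 1006 and 2149.9 CPM, with replicates 2, 11 and 14 below all WT and non-lesional libraries. In log2 terms it differed from WT by -0.40 (standard error 0.25, edgeR adjusted p = 0.926), and -0.14 without replicates 2 and 11. Replicate 14 had stress keratins at the WT level and the highest skeletal muscle markers of all libraries, and the part of either in its low *Krt10* was not tested.

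Of the 6 keratins tested 2, *Krt14* and *Krt1*, had an unadjusted p under 0.05 between lesional and WT libraries, both higher. Among all 12918 genes 4.81% had such a p and 3.24% were also higher. The groups overlapped for all 6, and 0.697% of all genes had no overlap. Over all genes 0 passed an adjusted p of 0.05 (edgeR), 621 had an unadjusted p under 0.05, and DESeq2's Wald test called 14 genes, none of them among the 7 keratins. Without lesional replicates 2 and 11, 0 of the 6 had an unadjusted p under 0.05, where 2.94% of 13415 genes did, and with the sets as a block it was also 0 of 6, where 4.59% of all genes did. The median log2 fold change was 0.29 over the 3 basal and -0.40 over the 3 tested suprabasal keratins, against -0.0034 over all genes tested. The values ran from -0.557 to 1.36 over the basal and from -0.49 to 0.681 over the suprabasal keratins. Without lesional replicates 2 and 11 the medians were -0.10 and -0.14.

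**Figure D2:**
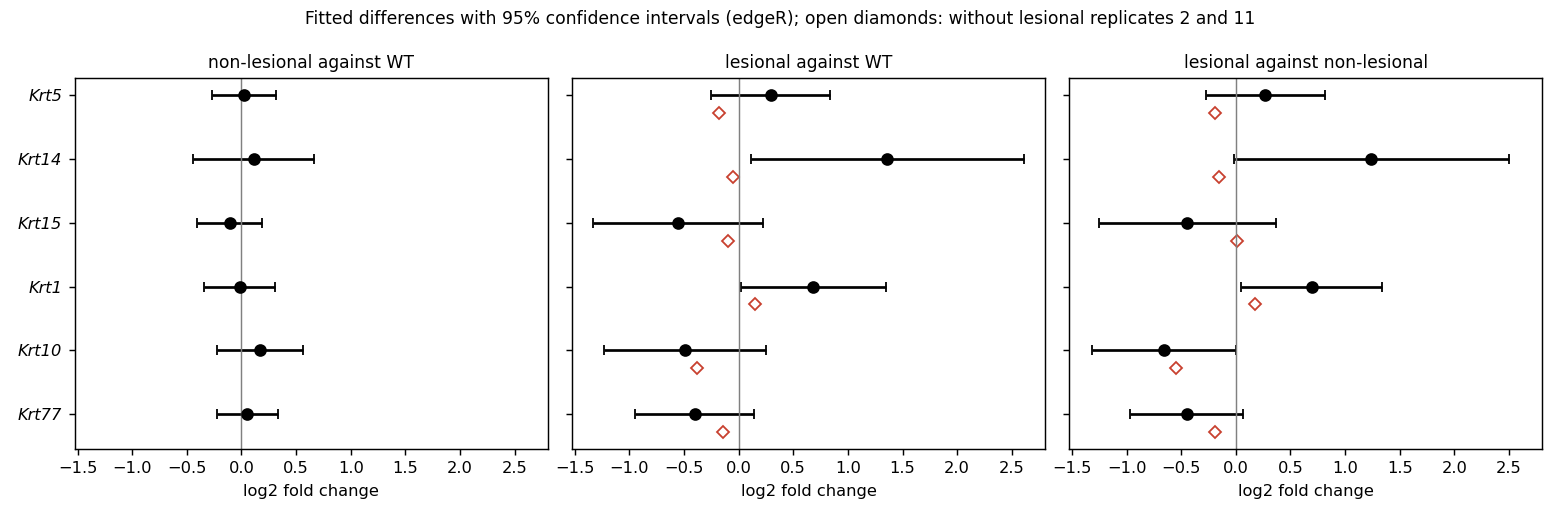
Fitted log2 fold change of each keratin (horizontal axis) with its 95% confidence interval (black, edgeR) in the 3 comparisons, and the value without lesional replicates 2 and 11 (open red diamonds). All intervals of the first panel cover 0, and in the lesional panels the diamonds of *Krt14* lie at -0.051 and -0.155, against 1.36 and 1.24 with all libraries.

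Compared directly, lesional and non-lesional OTULIN-KO skin differed in the same directions, and since the 5 lesional libraries enter both comparisons the values are given side by side only. The log2 fold changes were 1.24 for *Krt14* (standard error 0.57), 0.27 for *Krt5*, -0.44 for *Krt15*, 0.70 for *Krt1* (standard error 0.30), -0.66 for *Krt10* (standard error 0.31) and -0.45 for *Krt77*. All had an edgeR adjusted p of 0.973. *Krt10* was below all non-lesional libraries in 4 of 5 lesional libraries, with replicate 8 the exception. *Krt1* was above all non-lesional libraries in 3 of 5, and *Krt77* below them in 3 of 5. Of the 6 keratins tested 1, *Krt1*, had an unadjusted p under 0.05 (0.0367, edgeR, higher), where 4.22% of 12864 genes did and 2.89% were also higher, and the groups overlapped for all 6, where 0.606% of genes had no overlap. *Krt14* had an unadjusted p of 0.0523 and *Krt10* of 0.0509 (edgeR). Over all genes 0 passed an adjusted p of 0.05 with edgeR or DESeq2, and 543 had an unadjusted p under 0.05 (edgeR). Without replicates 2 and 11 the log2 fold changes were -0.155 for *Krt14*, -0.195 for *Krt5*, 0.01 for *Krt15*, 0.17 for *Krt1*, -0.55 for *Krt10* and -0.19 for *Krt77*.

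Within the 5 sets of consecutive numbers, the lesional library lay on the same side of the non-lesional one in every set for 4 of the 6 keratins. The share of all genes that did so was not computed, so this count is a description only. No label says that such a set belongs together. It was lower in 5 of 5 sets for *Krt10*, with log2 differences of -1.99 to -0.05, and for *Krt77*, with -1.74 to -0.0499. It was higher in 5 of 5 for *Krt14*, with 0.0332 to 2.3, and for *Krt1*, with 0.0891 to 1.68. For *Krt5* it was higher in 4 of 5 sets and for *Krt15* lower in 4 of 5. The median difference over sets was -0.164 for *Krt10*, -0.321 for *Krt77*, 0.383 for *Krt14* and 0.258 for *Krt1*. With the sets as a block the log2 fold changes were -0.80 for *Krt10*, -0.53 for *Krt77*, 0.78 for *Krt14* and 0.57 for *Krt1*, all with an edgeR adjusted p of 0.834. Of the 6 keratins 2, *Krt1* and *Krt10*, had an unadjusted p under 0.05 in that fit (0.0346 and 0.0461, edgeR), where 5.19% of all genes did.

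The spread between libraries differed by group and by gene. In WT and non-lesional skin the coefficient of variation was lowest for *Krt77* in non-lesional (9.78%) and *Krt5* in WT libraries (11.9%), and highest for *Krt14* (34.7%) and *Krt10* (32.1%) in WT libraries. In lesional libraries it ran from 36% for *Krt77* to 94.6% for *Krt14*, above the WT and non-lesional value for each of the 6 keratins. Lesional libraries other than replicates 2 and 11 spanned 679.6 to 1070.3 CPM for *Krt14* and 1701 to 1966 CPM for *Krt5*. Those spans were narrower than the WT ranges of 647 to 1450 and 1732 to 2388 CPM. *Krt10* still spanned 1049 to 3684 CPM in these lesional libraries.

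The make-up of the keratin pool within a library does not depend on library scaling. Basal keratins gave 41.3% to 54.3% of the counts of the 7 genes in WT and 43% to 47.8% in non-lesional libraries. In lesional replicates 2, 5, 8, 11 and 14 they gave 56.6%, 46.2%, 41.6%, 78.4% and 64.3%, so that 2, 11 and 14 lay above all other libraries. A share of a fixed total also rises when the other keratins fall. In lesional replicate 14 the basal keratins summed to 6095 CPM, within the WT range of 5352 to 6628 CPM. Its suprabasal keratins summed to 3381 CPM, against 4665 to 8527 CPM in WT. Among lesional replicates 2, 11 and 14 the leading basal gene was not the same. In lesional replicate 11 *Krt14* alone gave 42.7% and *Krt15* 4.59% of the pool, and in replicate 2 they gave 25.3% and 9.42%. In replicate 14 *Krt15* gave 34.6% and *Krt14* 11.3%, which is within the WT range of *Krt14* (4.88% to 11.9%). *Krt10* gave 9.86% and 11.1% in replicates 11 and 14, against 21.4% to 34.5% in WT and 27.8% to 31.3% in non-lesional libraries.

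**Figure D3:**
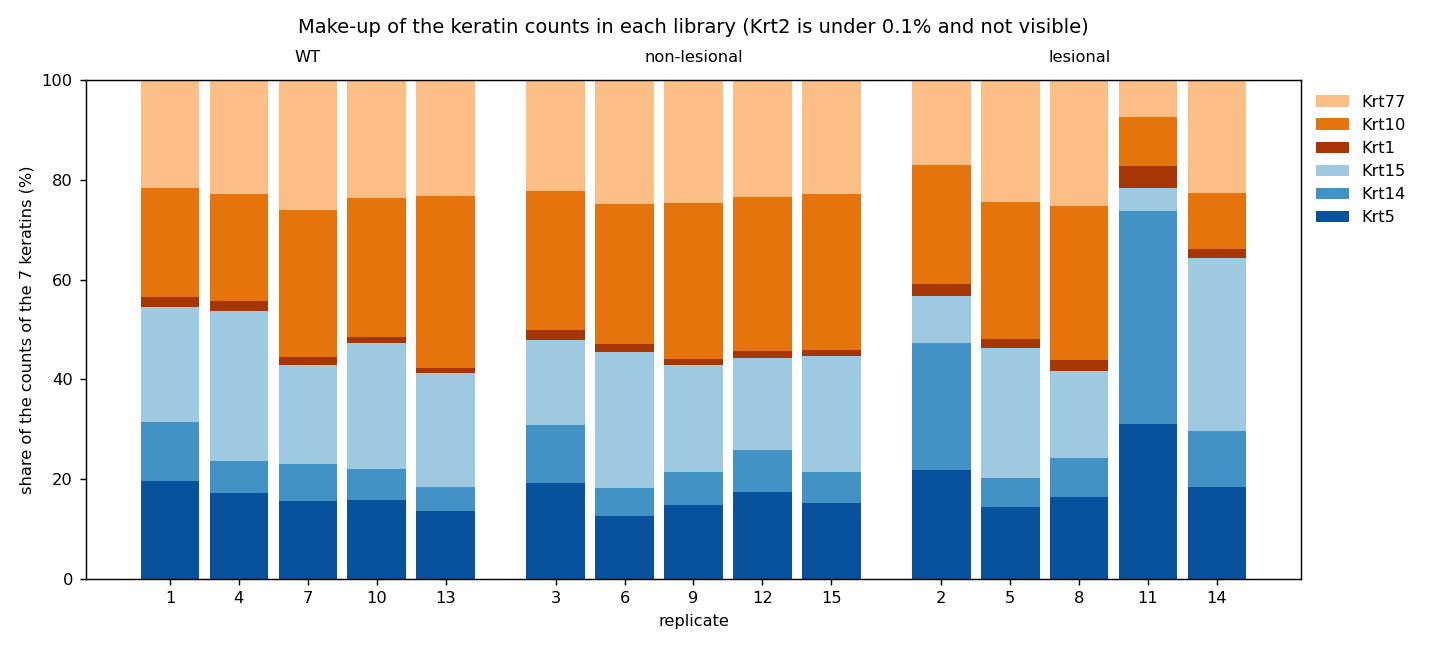
Share of each keratin in the summed counts of the 7 keratins (vertical axis, percent) in every library, basal keratins in blue and suprabasal keratins in orange. Lesional replicate 11 has the largest *Krt14* share, at 42.7%, and lesional replicates 11 and 14 the smallest *Krt10* shares.

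The ratio of *Krt14* to *Krt10* counts sets the basal against the suprabasal type I keratin. It was 0.141 to 0.545 in WT and 0.197 to 0.419 in non-lesional libraries. In lesional replicates 2, 5, 8, 11 and 14 it was 1.06, 0.209, 0.251, 4.33 and 1.02, so 3 of 5 lay above all WT and all non-lesional libraries and 2 of 5 within the WT range. The mean log2 ratio of the lesional libraries was -0.41 ± 1.79 (SD, n = 5). That of the WT libraries was -1.92 ± 0.71 (SD, n = 5), a difference of 1.51 (exact permutation test, two-sided, p = 0.119, and 0.214 after adjustment for 9 ratio tests). Against the non-lesional mean of -2.01 ± 0.46 (SD, n = 5) the difference was 1.61 (exact permutation p = 0.103, adjusted 0.214). Without replicates 2 and 11 these differences were 0.51 and 0.605. Non-lesional and WT libraries differed by -0.0985 (exact permutation p = 0.817).

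The partners of the basal pair, *Krt5* and *Krt14*, had ratios nearer to equal counts in some lesional libraries. *Krt5* counts exceeded *Krt14* counts in all WT and non-lesional libraries, by 1.65 to 2.79 and by 1.65 to 2.47 times. In lesional replicates 2, 5, 8, 11 and 14 the ratio was 0.864, 2.5, 2.13, 0.729 and 1.63, and 2 and 11 were the only libraries with more *Krt14* than *Krt5* counts. The difference of the mean log2 ratio was -0.71 against WT (two-sided exact permutation test, p = 0.103, adjusted 0.214) and -0.60 against non-lesional libraries (exact permutation p = 0.198, adjusted 0.298). Non-lesional and WT libraries differed by -0.11 (exact permutation p = 0.516, adjusted 0.661). Without replicates 2 and 11 the lesional differences were -0.162 and -0.0495. Words shared between *Krt14*, *Krt16* and *Krt17* bear on this ratio and on that of *Krt14* to *Krt10* alike, and the 2 libraries with the lowest *Krt5* to *Krt14* ratio are those with the highest stress keratins. The part of shared reads in either ratio was not tested.

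Within the suprabasal pair, *Krt1* counts were larger relative to *Krt10* counts in some lesional libraries. The ratio of *Krt1* to *Krt10* counts was 0.102, 0.0664, 0.0698, 0.449 and 0.172 in lesional replicates 2, 5, 8, 11 and 14, against 0.0288 to 0.1 in WT and 0.0371 to 0.076 in non-lesional libraries. The lesional libraries 2, 11 and 14 lay above all others, replicate 2 only just above the highest WT library. The mean log2 ratio was 1.39 higher than in non-lesional libraries (exact permutation test, two-sided, p = 0.0238, adjusted 0.214) and 1.16 higher than in WT libraries (exact permutation p = 0.0873, adjusted 0.214). Without replicates 2 and 11 the differences were 0.91 and 0.68. Non-lesional and WT libraries differed by -0.23 (exact permutation p = 0.587). The 3 ratios thus each had 3 of 5 lesional libraries outside the WT range, in each case replicates 2, 11 and 14, and none of the 9 tests passed the adjusted threshold, with 0.0079 the smallest p that 5 against 5 libraries allow. The ratios share *Krt14* and *Krt10* and are not separate observations. For *Krt5* to *Krt14*, replicate 14 lay only just outside, at 1.63 against a WT minimum of 1.65.

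**Figure D4:**
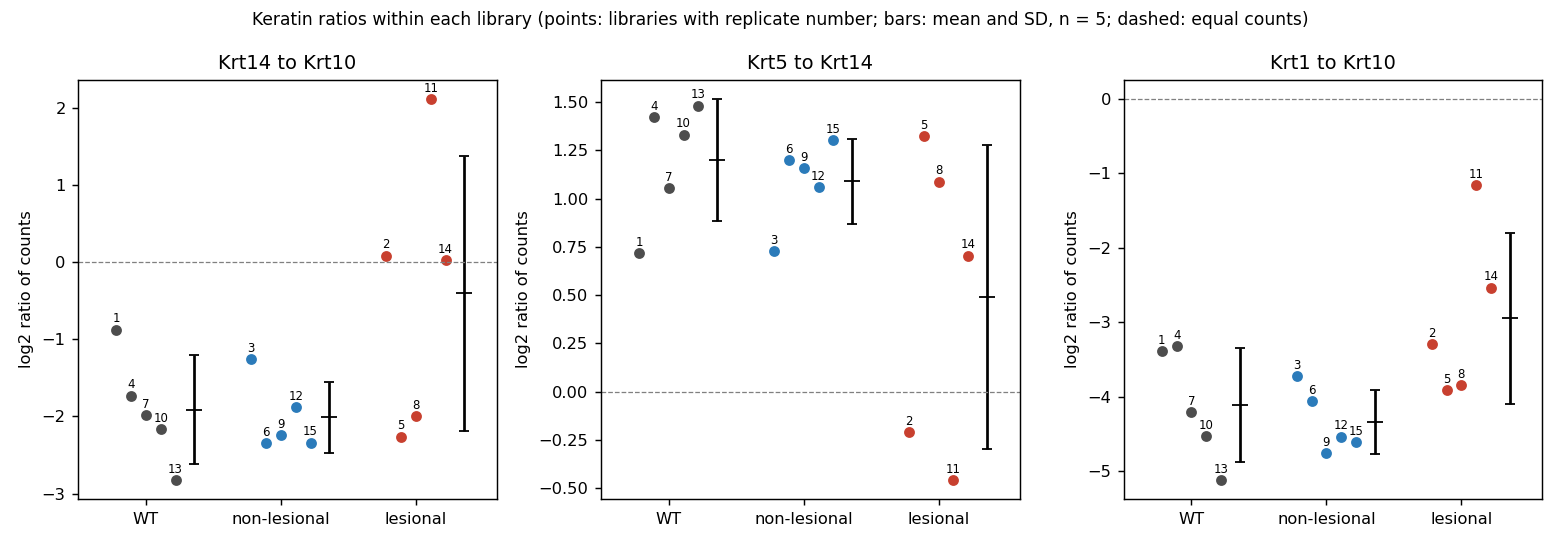
Log2 ratio of the counts of keratin pairs within each library (vertical axes) by group, with replicate numbers, the mean and SD (n = 5) as bars, and equal counts as a dashed line. Lesional replicates 2, 11 and 14 lie above all WT libraries for *Krt14* to *Krt10* and for *Krt1* to *Krt10*, and below them for *Krt5* to *Krt14*.

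Across the 10 WT and non-lesional libraries, some keratins varied together. *Krt10* and *Krt77*, a type I and a type II suprabasal keratin, had Pearson's r = 0.924 on the log2 CPM scale (permutation test, adjusted over 15 pairs of keratins p = 0.0045) and Spearman's rho = 0.927 (permutation, adjusted p = 0.00585). Without the 2 libraries farthest from the median *Krt10* level r was 0.761. *Krt5* and *Krt14* had r = 0.855 (permutation, adjusted p = 0.00907) and rho = 0.758 (permutation, adjusted p = 0.073), and r = 0.895 without the 2 farthest libraries. *Krt1* and *Krt10*, which pair in filaments, ran in opposite directions, with r = -0.719 (permutation, adjusted p = 0.0685), rho = -0.867 (permutation, adjusted p = 0.0167) and r = -0.536 without the 2 farthest libraries. For the other 12 pairs no adjusted p was under 0.05, the nearest being *Krt14* with *Krt15* at r = -0.709 (permutation, adjusted p = 0.0685). All CPM of a library share its scaling factor. The permutations treated the 10 libraries as independent. WT and non-lesional libraries of a set of consecutive numbers deviated together, with correlations of 0.115 to 0.268 over 13454 genes. The p-values of these permutation tests may therefore be too small.

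**Figure D5:**
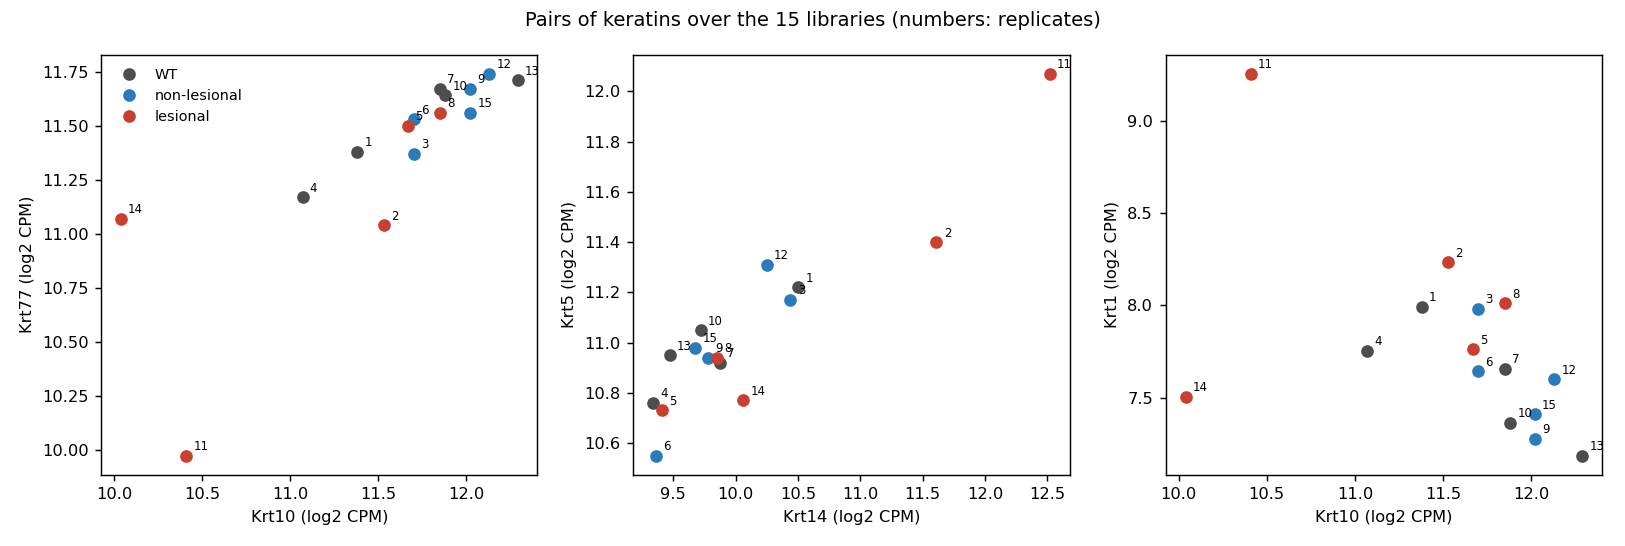
Levels of 3 pairs of keratins against each other (both axes log2 CPM) in the 15 libraries, coloured by group and numbered by replicate. WT and non-lesional libraries lie along a rising line for *Krt10* with *Krt77* and for *Krt14* with *Krt5*, and along a falling one for *Krt10* with *Krt1*, while lesional replicates 11 and 14 have low *Krt10* together with different levels of *Krt1*.

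Among the 10215 genes with a mean of at least 10 CPM, the 5 that were no member and most like *Krt14* over the 15 libraries were *Elovl3* (r = 0.973), *Endou* (0.969), *Qsox1* (0.968), *Krt16* (0.965) and *Cstdc5* (0.964). Without lesional replicates 2 and 11 these correlations were 0.934, 0.829, 0.846, 0.825 and 0.815. *Krt5* ranked 58 for likeness to *Krt14* (r = 0.923, and 0.779 without those libraries), while *Krt15* ranked 10208 of 10215 (r = -0.931, and -0.541 without them). The genes most like *Krt10* were *Emp1* (r = 0.932), *Itm2b* (0.904), *Skint9* (0.894), *Rnf13* (0.89) and *1700113A16Rik* (0.885), and these values were 0.926, 0.922, 0.873, 0.909 and 0.867 without lesional replicates 2 and 11. *Krt77* ranked 45 (r = 0.794, and 0.919 without them). These are descriptions over libraries that share depth and composition, with no test.

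The other genes of the epidermis give the setting of the keratin values. For non-lesional against WT skin, 0 of 11 genes that anchor basal cells to the basement membrane had an unadjusted p under 0.05, with a median log2 fold change of -0.075 and *Dst* (-0.21) and *Itga3* (-0.285) the closest. Of 15 suprabasal and cornified layer genes, *Tgm1* was higher (0.74, unadjusted p = 0.0323) and *Tgm3* lower (-0.895, unadjusted p = 0.00515, edgeR), which encode transglutaminases that cross-link the cornified envelope. Both had an adjusted p of 1 (edgeR), and the list median was 0.011. None of 14 epidermal transcription factors had an unadjusted p under 0.05 (median 0.022), *Trp63*, the master factor of the basal layer, being at -0.22 and *Cebpa* at 0.17. Among other keratins, *Krt6a* was at -0.50 and *Krt17* at -0.155, and without WT replicate 1 these turned to 0.0128 and 0.0504. *Krt32* of the hair was at -0.58 (unadjusted p = 0.00738, edgeR, adjusted p = 1) and *Krt75* at -0.66 (-0.261 without WT replicate 1), and *Krt78* at 0.15 and *Krt23* at -0.099.

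For lesional against WT skin, 0 of the 11 anchorage genes had an unadjusted p under 0.05 (median -0.049), with *Col17a1*, a hemidesmosome collagen, at -0.24 (-0.0343 without lesional replicates 2 and 11). Of 15 suprabasal and cornified layer genes 3 had an unadjusted p under 0.05, all higher (list median 0.15), among them *Dsc1*, a desmosomal cadherin, at 0.71 and *Casp14*, a protease of cornification, at 1.29, which were 0.23 and 0.0521 without those libraries. Of 14 transcription factors 2 did, *Grhl3* at 1.01 and *Zfp750* at 0.64, with a list median of 0.16, and these genes were at 0.139 and 0.0975 without them. All 3 stress keratins tested did, with *Krt16* at 4.78 and *Krt17* at 1.75, and -1 and -0.25 without them. In all, 0 genes of the 4 lists had an unadjusted p under 0.05 (edgeR) without these libraries, where 2.94% of all genes did, with medians of -0.055, 0.02, -0.15 and -0.80 in the order above. *Krt79* and *Krt32* of the hair follicle were at 1.01 and -0.78 (-0.143 and -0.324 without them), *Krt23* at -0.30 and *Krt80* at 0.04. Each of these genes had an edgeR adjusted p of 0.926 except *Krt80* (0.992). For lesional against non-lesional skin an unadjusted p under 0.05 was found for 0 of 11 anchorage genes (median 0.021), 3 of 15 suprabasal and cornified layer genes (0.26, all higher), 0 of 14 transcription factors (0.13) and 3 of 4 stress keratins (4.1, all higher). The named genes were *Itga3* at 0.30, *Tgm3* at 1.05, *Dsc1* at 0.68, *Gata3* at -0.23, *Grhl3* at 0.855, *Krt6a* at 3.47, *Krt17* at 1.90, *Krt75* at 0.60, *Krt79* at 0.935, *Krt23* at -0.20 and *Krt78* at -0.18, all with an edgeR adjusted p of 0.973 or 0.975. Without lesional replicates 2 and 11 the medians of the 4 lists were 0.0071, -0.0052, -0.16 and -0.69, and 1 suprabasal and cornified layer gene had an unadjusted p under 0.05 in each direction, with 0 in the other lists (edgeR), where 3.51% of 13403 genes had such a p. *Tgm3* was then at 0.735, *Dsc1* at 0.204, *Krt75* at 0.239 and *Grhl3* at -0.0122. The sign also turned for *Krt6a* (-0.294), *Krt17* (-0.088), *Krt79* (-0.212) and *Krt78* (0.129).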

How the data were processed

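QuantSeq 3′ libraries were made by the authors from skin of WT and OTULIN-KO mice. The authors clipped adaptors with cutadapt 2.10, aligned reads to GRCm38 plus spike-in sequences with subread-align, used SAMtools 1.7-2 to drop secondary and low-quality alignments and deposited the featureCounts 2.0.1 total of each gene. Nothing was normalized at that step, a match over several genes counted for each, and PCR copies were not removed, so counts are not independent molecules. The annotation release is not given in the sources used here. The authors also deposited CPM. All 833685 of these gave back the deposited count to within 0.01 when multiplied by the library total, so only the counts were analysed. The 92 spike-in rows held 0 counts and were left out, and no pair of replicates agreed within sampling noise (lowest chi-square per degree of freedom 3.81).

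CPM given here were computed from the deposited counts with TMM library sizes over all 15 libraries, and log2 CPM with a prior count of 2. Each pair of groups was fitted alone with edgeR 4.0.16 in R 4.3.3 (TMM, filterByExpr, robust quasi-likelihood F-test, Benjamini-Hochberg adjustment over all genes tested, threshold 0.05). Of the 7 keratins 6 passed the filter in each comparison. Ratios within a library were compared by two-sided exact permutation tests over 252 regroupings and correlations by 100000 permutations. The 3 planned *Krt2* to *Krt10* tests could not be made because of 0 counts, which left 9 ratio tests. Alternatives were DESeq2 1.42.0, voomWithQualityWeights of limma 3.58.1, other scalings and filters, all libraries in 1 fit, consecutive library numbers as a block, no robust estimation and leaving out each replicate.

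The keratins, the other gene lists and the tests were chosen with earlier results of these data known. Named besides the keratins were *Otulin*, the 2 genes of each epidermal list with the smallest unadjusted p in each comparison, and the 5 genes most like *Krt14* and *Krt10*. A gene that this rule names is not reported here.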

Additional observations from a re-analysis of the deposited data

Results flagged for a closer look

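Of 33 groups of 5 values examined (keratin levels, ratios, library totals and keratin shares by group), 1 held a library far from the others by Dixon's criterion, where chance flags about 1 in 20. It was *Krt1* in lesional replicate 11, at 610.4 CPM, with the next lesional library at 300.0 CPM and the lowest at 181 CPM. Its gap to the next was 0.723 of the range, just above the critical value of 0.71. The same library had the highest *Krt5* and *Krt14* levels and the highest summed stress keratins of all 15, and the part of these in its *Krt1* value was not tested.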

How the results depend on the processing

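Genes past an adjusted p of 0.05 between non-lesional and WT libraries numbered 0 with edgeR, 1 with DESeq2 (*Ifit1*), 18 without a filter on low counts (13 higher) and 0 to 5 when each replicate was left out, with 5 without non-lesional replicate 6. Between lesional and WT libraries it was 0 with edgeR and 14 with DESeq2, all higher. No keratin of the 7 was called under any alternative, and *Tgm3* between non-lesional and WT libraries passed without the filter (log2 fold change -0.896, adjusted p = 0.0391, edgeR). The cause of these moves was not tested. Without lesional replicates 2 and 11, an alternative added after the data were seen, values against WT turned to -0.18 for *Krt5*, -0.0507 for *Krt14*, -1 for *Krt16*, -0.249 for *Krt17*, -0.143 for *Krt79* and -0.106 for *Krt80*. Against non-lesional libraries they turned to -0.195 for *Krt5*, -0.155 for *Krt14*, 0.0106 for *Krt15*, -0.0122 for *Grhl3*, -0.294 for *Krt6a*, -0.088 for *Krt17*, -0.212 for *Krt79* and 0.129 for *Krt78*. Leaving out each replicate turned the sign of some values. Between non-lesional and WT libraries the ranges were -0.0644 to 0.116 for *Krt5*, -0.0472 to 0.341 for *Krt14*, -0.134 to 0.0989 for *Krt1*, -0.0257 to 0.102 for *Krt77*, -0.766 to 0.0128 for *Krt6a*, -0.279 to 0.0504 for *Krt17*, -0.217 to 0.0882 for *Krt23* and -0.325 to 0.161 for the log2 ratio of *Krt14* to *Krt10*, which was positive only without WT replicate 1. Between lesional and WT libraries they were -0.00155 to 0.403 for *Krt5*, lowest without lesional replicate 11, -0.0294 to 0.131 for *Krt80* and -0.0517 to 0.188 for *Otulin*. Between lesional and non-lesional libraries they were -0.0223 to 0.38 for *Krt5*, lowest without lesional replicate 11, and -0.14 to 0.00323 for *Otulin*. Without lesional replicate 11 *Krt14* was at 0.664 against WT and 0.552 against non-lesional libraries, and *Krt1* at 0.286 and 0.303. Of the other keratin values, those of *Krt10* kept their sign under all alternatives in each comparison. The groups share no replicate numbers, but the titles number the libraries in turn by group. With consecutive numbers taken as sets, deviations from the group means over 13454 genes correlated within a set at 0.115 to 0.268 between non-lesional and WT, at 0.11 to 0.352 between lesional and non-lesional and at -0.093 to 0.265 between lesional and WT libraries, against medians of -0.0626, -0.0496 and -0.0541 between sets. The ranges between sets were -0.198 to 0.088, -0.23 to 0.111 and -0.193 to 0.185 in the same order. Between lesional and WT libraries the ranges within and between sets thus overlapped widely. A link within sets is a hint from the data, not from the labels. With such a set as a replicate block, added after the data were seen, 8 genes (7 higher) passed an adjusted p of 0.05 between non-lesional and WT libraries (edgeR), and 0 in the other comparisons, with 593 and 668 genes at an unadjusted p under 0.05. No sign of a named gene turned and no keratin was called under the block, while *Krt16* and *Krt17* were at 2.25 and 0.941 against WT and *Krt6a*, *Krt17* and *Krt79* at 1.4, 1.12 and 0.593 against non-lesional libraries. Counts of the 6 tested keratins were 372 or more in every library, so depth limits *Krt2* alone among the 7.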

Other observations

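Markers of other skin cells were read in the same way as the keratins. Between non-lesional and WT libraries, the median log2 fold change was 0.00017 over 11 skeletal muscle genes, 0.07 over 9 adipocyte genes, 0.21 over 5 sebaceous gland genes, -0.02 over 7 fibroblast genes, -0.0016 over 4 endothelial genes, -0.079 over 3 melanocyte genes, 0.084 over 7 macrophage genes and 0.73 over 4 erythrocyte genes. Among these, 1 adipocyte gene had an unadjusted p under 0.05 (higher), and all other lists had 0 (edgeR), with 0 past an adjusted p of 0.05. Between lesional and WT libraries the medians were 0.012, -0.093, -0.19, -0.23, -0.37, -0.15, 0.17 and 0.26 for the same lists, with 5 endothelial genes tested. Unadjusted p-values under 0.05 were found there for 1 adipocyte gene (lower), 2 sebaceous gland genes (1 higher, 1 lower) and 1 macrophage gene (higher). Without lesional replicates 2 and 11 the medians were 0.38, 0.35, 0.0052, 0.0049, -0.028, 0.24, -0.0019 and 0.49, and 1 adipocyte and 1 erythrocyte gene had an unadjusted p under 0.05 (edgeR, both higher). Between lesional and non-lesional libraries the medians were -0.048, -0.33, -0.41, -0.21, -0.33, -0.22, 0.087 and -0.45 for the lists in that order, with 4 endothelial genes tested. There 1 adipocyte gene (lower) and 2 macrophage genes (both higher) had an unadjusted p under 0.05, and the other lists had 0 (edgeR). Negative values were found for all 9 adipocyte, all 4 endothelial, all 4 erythrocyte, all 3 melanocyte and 6 of 7 fibroblast genes. Without lesional replicates 2 and 11 the medians were 0.39, 0.069, -0.16, 0.054, -0.13, 0.21, -0.17 and -0.23, with 5 endothelial and 4 melanocyte genes tested. Unadjusted p-values under 0.05 were then found for 1 adipocyte, 1 fibroblast and 1 endothelial gene (all higher) and 1 macrophage gene (lower, edgeR). In lesional replicates 2 and 11 the adipocyte genes summed to 2745 and 2006 CPM, against 4056 to 6416 CPM in all other libraries. The 5 melanocyte genes summed to 109, 105.9 and 134.5 CPM in WT replicate 1, lesional replicate 2 and non-lesional replicate 3 and to 108.9 CPM in lesional replicate 11, against 204.8 to 268.4 CPM elsewhere. WT replicate 1 and non-lesional replicate 3 also had the highest *Krt14* and the highest summed stress keratins of their groups, at 2183.8 and 1649.4 CPM for the latter. WT replicate 1, lesional replicate 2 and non-lesional replicate 3 have consecutive title numbers and so form a set as taken above. No label says that such a set belongs together.

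Of the hair follicle keratins, 3 of the 16 in the table passed the filter in each comparison, and their medians were -0.58 between non-lesional and WT, -0.057 between lesional and WT and 0.60 between lesional and non-lesional libraries. The 12 other epithelial keratins had 3 tested in each comparison, with medians of 0.039, -0.037 and -0.18.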
